A study of Sus scrofa with 10 samples.

Results

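In the peripheral blood of Qingyu pigs, 7 of the 12354 mRNAs listed were chosen by their rise after birth. Each was higher by at least 1.5 on the log2(FPKM + 1) scale at 7 days than at birth, and by at least 1.5 again at 28 days than at 7 days. Each also had a mean of at least 50 FPKM at 180 days and a mean there above that at 28 days. FPKM are sequenced fragments scaled to transcript length and to library size, and 1 was added before taking logarithms so that values of 0 could be kept. The members were ENSSSCG00000021006, ENSSSCG00000034766, ENSSSCG00000036203, ENSSSCG00000036224, ENSSSCG00000037141, ENSSSCG00000039111 and ENSSSCG00000040381, named by Ensembl identifier because 0 of the 7 had a symbol or a position in the tables used here.

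The blood came from 10 healthy female Qingyu pigs with no treatment, 2 at each of 5 ages. Pigs were sampled just born (D0), as sucklings of 7 days (D7), at weaning with 28 days (D28), at sexual maturity with 180 days (D180) and as adults of 2 years (Y2). All groups shared breed and sex, and each of the 10 libraries was made from a different pig, so no animal was followed over time. Error is given as the SD over the 2 pigs of an age, and the number of reads behind an FPKM value is unknown. With 2 pigs against 2, a two-sided permutation test cannot give a p below 0.333, so tests between ages come from limma, fitted over all 12354 mRNAs with Benjamini-Hochberg adjustment.

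A piglet is born with almost no circulating antibody, because the porcine placenta passes none, and takes up maternal antibody from colostrum. Its own B and T lymphocytes multiply and meet antigens of food and microbes during the weeks that follow. Whole blood also carries red cells and reticulocytes, whose globin mRNAs take up much of its RNA, and these change with age as well. In whole blood, fewer cells of a type and less RNA per cell cannot be told apart. What the 7 mRNAs encode is not stated in the sources used here, so no role is given for them.

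At birth, 6 of the 7 mRNAs had means below 1 FPKM and ENSSSCG00000036224 stood above them. The median mRNA was at 0.848 FPKM at that age, just below the 0.889 FPKM of ENSSSCG00000021006, the highest of the 6. ENSSSCG00000036203 was listed at 0 FPKM in the D0 pig 1 and at 0.0244 FPKM in pig 2, the lowest level of the 7. ENSSSCG00000036224 was at 3.63 and 4.42 FPKM in the 2 newborn pigs. The other 5 lay between 0.197 and 1.19 FPKM at D0, and of their pairs only ENSSSCG00000021006 and ENSSSCG00000040381 did not overlap. From D7 on, every member was above 2 FPKM in both pigs of an age.

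**Figure D1:**
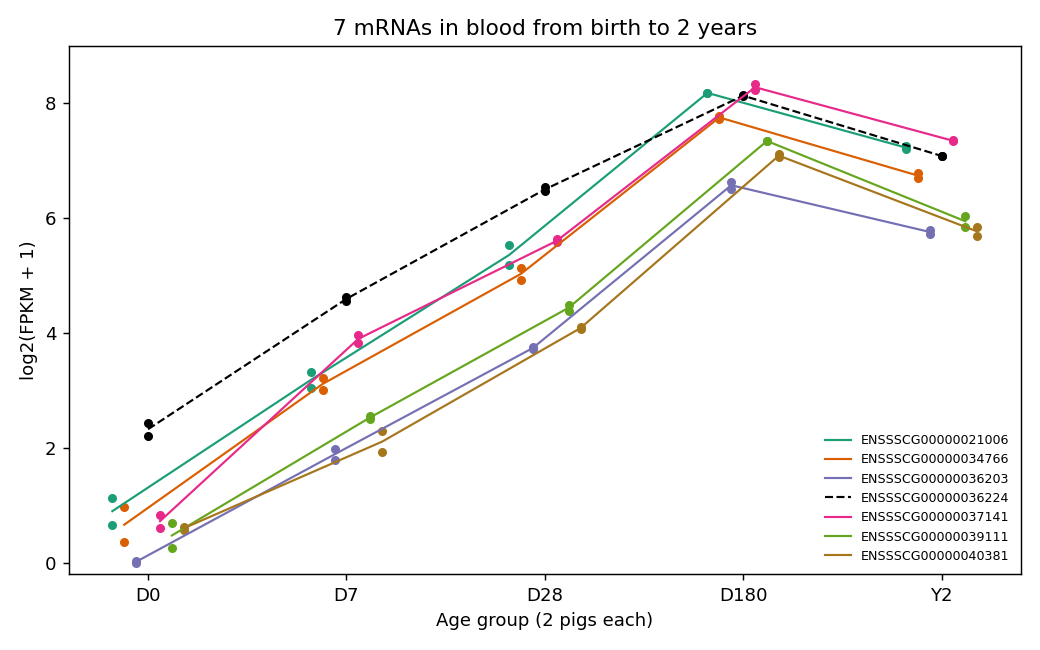
Levels of the 7 mRNAs in blood on the log2(FPKM + 1) scale (vertical axis) at the 5 ages (horizontal axis). Each point is 1 pig and lines join the means of 2 pigs, with the points of an mRNA shifted sideways for legibility. At D180 the 14 points lie between 90.2 and 321 FPKM, and at Y2 all lie below those of the same mRNA at D180 and above those at D28. The dashed line is ENSSSCG00000036224.

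ENSSSCG00000037141 reached the highest mean of the 7 at D180. It was at 0.528 and 0.785 FPKM at D0, 13.3 and 14.6 at D7, 46.8 and 48.6 at D28, 321 and 299.6 at D180, and 163 and 161 at Y2. Both pigs of an age lay close together beside the distance between ages, and no ages overlapped. The difference between its mean log2 levels at D180 and D0 was 7.56, which ranked 1 among all mRNAs, although such a rise is what the members were selected on.

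ENSSSCG00000021006 came next in level. It was at 1.19 and 0.583 FPKM at D0, 9.0 and 7.23 at D7, 35.5 and 45.1 at D28, 291 and 288 at D180, and 146 and 152 at Y2. On the log2(FPKM + 1) scale its pigs differed most at D0 and least at D180. The groups did not overlap, and the 2 adult pigs fell between those of D28 and D180.

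ENSSSCG00000036224 had the smallest rise from D0 to D180 of the 7, at 5.81 on the log2 scale. It was at 3.63 and 4.42 FPKM at D0, 22.7 and 23.7 at D7, 87.4 and 91.8 at D28, 281 and 279 at D180, and 134 and 135 at Y2. It was the highest of the 7 at D0, D7 and D28 and ranked below ENSSSCG00000037141 and ENSSSCG00000021006 at D180. Its D180 mean was 3.13 times its D28 mean, whereas for the other 6 this ratio lay between 6.50 and 8.46.

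ENSSSCG00000034766 was at 0.955 and 0.282 FPKM at D0, 7.02 and 8.34 at D7, 29.4 and 34.2 at D28, 218 and 212 at D180, and 102 and 110.0 at Y2. Its 2 newborn pigs stood farthest apart of all 7 members, by 0.609 on the log2(FPKM + 1) scale. No ages overlapped.

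The remaining 3 members were lower. ENSSSCG00000039111 was at 0.614 and 0.197 FPKM at D0, 4.89 and 4.67 at D7, 19.9 and 21.5 at D28, 162 and 161 at D180, and 65.1 and 56.6 at Y2. ENSSSCG00000040381 was at 0.543 and 0.489 FPKM at D0, 2.80 and 3.89 at D7, 15.8 and 16.2 at D28, 133 and 137 at D180, and 50.8 and 56.5 at Y2. Both had a lower level at Y2 relative to D180 than the other members, with Y2 means of 37.6% and 39.6% of the D180 means against 48.1% to 56.4% for the other 5.

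ENSSSCG00000036203 was at 2.45 and 2.97 FPKM at D7, 12.5 and 12.2 at D28, 98.6 and 90.2 at D180, and 52.1 and 54.4 at Y2. It was the lowest member at each age by its mean. At Y2 its pigs lay within the range of ENSSSCG00000040381, so that order did not exceed their spread.

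At D180 the order of the means was 310.3 ± 15.1 FPKM for ENSSSCG00000037141, 289 ± 2.02 for ENSSSCG00000021006, 280.0 ± 1.10 for ENSSSCG00000036224, 215 ± 4.82 for ENSSSCG00000034766, 162 ± 0.173 for ENSSSCG00000039111, 135 ± 2.69 for ENSSSCG00000040381 and 94.4 ± 5.95 for ENSSSCG00000036203 (SD, n = 2). No neighbours in this order overlapped. At Y2 the same order held by the means, with ENSSSCG00000036203 and ENSSSCG00000040381 overlapping. At D7 the neighbours ENSSSCG00000021006 and ENSSSCG00000034766 overlapped, as did ENSSSCG00000040381 and ENSSSCG00000036203.

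The members also moved up the ranking of all mRNAs by mean FPKM, where rank 1 is the highest. At D0 their ranks ran from 1886 for ENSSSCG00000036224 to 12028 for ENSSSCG00000036203. At D28 they ran from 197 to 1117, at D180 from 105 to 308 and at Y2 from 126 to 335. ENSSSCG00000037141, at rank 6998 at birth, was at rank 653 at D7 and 105 at D180.

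The summed level of the 7 was 7.13 ± 0.487 FPKM in newborn pigs and 63.8 ± 2.32 at D7 (SD, n = 2). It was 258 ± 15.8 FPKM at D28, 1486 ± 26.5 at D180 and 719 ± 8.18 in adults. Their share of the summed FPKM of all mRNAs went from 0.000673% at D0 to 0.199% at D180 and was 0.0794% at Y2. The composition of the sum shifted as well. ENSSSCG00000036224 made up 56.5% of it at D0, 36.4% at D7, 34.7% at D28 and 18.8% at D180. ENSSSCG00000037141 went from 9.21% at D0 to 21.9% at D7 and 20.9% at D180, and ENSSSCG00000021006 from 12.5% at D0 to 19.5% at D180. At Y2 the share of ENSSSCG00000036224 was 18.7%, close to that at D180, although the sum was lower.

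**Figure D2:**
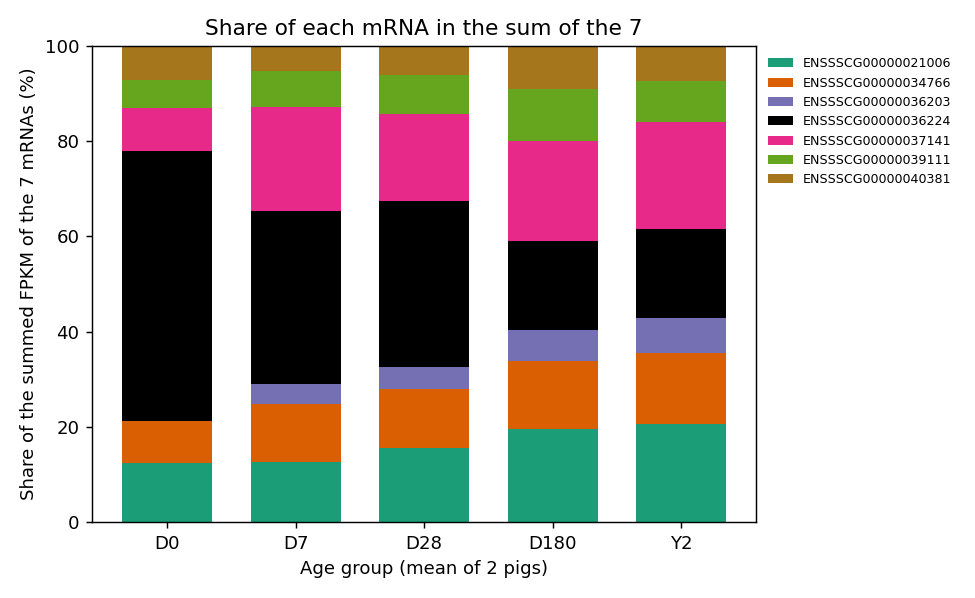
Share of each mRNA in the summed FPKM of the 7 (vertical axis, percent) at each age (horizontal axis), as stacked bars of the means of 2 pigs. The black segment, ENSSSCG00000036224, shrinks from 56.5% at D0 to 18.8% at D180, and the bars of D180 and Y2 are alike.

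The gap between the 2 pigs of an age differed between ages. The median gap between the pigs of an age over the 7 members, on the log2(FPKM + 1) scale and in order of age, was 0.23, 0.20, 0.07, 0.04 and 0.06. Over all mRNAs the corresponding medians were 0.08, 0.09, 0.11, 0.11 and 0.09. Over the 4088 mRNAs with a mean of at least 10 FPKM at some age they were 0.09, 0.10, 0.12, 0.09 and 0.07. The members' medians were thus above both at D0 and D7 and below both at D28 and D180, and at Y2 close to that of the mRNAs of at least 10 FPKM. At D28 pig 2 was higher in 6 of the 7 and at D180 pig 1 was higher in 6 of the 7.

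The steps from birth to D28, and a D180 mean above that of D28, chose the members, so the steps up to D180 are given as a description. The log2 steps from D0 to D7 ran from 1.51 for ENSSSCG00000040381 to 3.18 for ENSSSCG00000037141, with a median of 2.27 against 0.06 over all mRNAs. From D7 to D28 they ran from 1.71 for ENSSSCG00000037141 to 2.18 for ENSSSCG00000021006, with a median of 1.91 against 0.46. From D28 to D180 they ran from 1.63 for ENSSSCG00000036224 to 3.0 for ENSSSCG00000040381, with a median of 2.82 against 1.07. A call needed an adjusted p not above 0.05 together with a log2 change of 1.5 or more in size. These limits are those of the study, but here they were applied to limma changes on the log2(FPKM + 1) scale. The shares called are therefore not the study's own counts, which differ. All 7 were past both limits at each of these steps. Nothing is read from these counts, since the steps to D28 and the level at D180 chose the members. Of all mRNAs, 0.453% were called higher and 0.445% lower at D7 against D0, 2.02% higher and 0.38% lower at D28 against D7, and 17.8% higher and 0.898% lower at D180 against D28.

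The parts of the rule differed in how many mRNAs met them. A D180 mean above the D28 mean was found for 11747 mRNAs and a D180 mean of at least 50 FPKM for 653. A D0 to D7 step of at least 1.5 was found for 58 mRNAs, a D7 to D28 step of that size for 252, and both for 12, of which 8 had at least 50 FPKM at D180. The member nearest to a limit was ENSSSCG00000040381, with its D0 to D7 step of 1.51. Just outside were ENSSSCG00000037009, with steps of 1.51 and 1.48 and 80.1 FPKM at D180, and ENSSSCG00000036318, with steps of 1.46 and 1.83 and 79.5 FPKM. SLA-DQB1, a beta chain of the MHC class II molecules that present peptides to helper T cells, had steps of 1.42 and 1.94 and 147 FPKM at D180. Without D0 pig 2 or without D7 pig 2, ENSSSCG00000040381 missed the rule, with D0 to D7 steps of 1.48 and 1.33.

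The members followed similar courses after centring each on its own mean over the 10 libraries. Among the 15 pairs of the 6 members other than ENSSSCG00000036224, the root mean square difference of the centred log2(FPKM + 1) values lay between 0.19 and 0.60, with a median of 0.31. In the 6 pairs with ENSSSCG00000036224 it lay between 0.54 and 0.73, with a median of 0.60. The rule itself favours such likeness, and all points of a pair share their libraries.

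The same measure was taken against every other mRNA with a mean of at least 10 FPKM at some age. For 6 members the nearest was ENSSSCG00000036318, at a difference of 0.19 from ENSSSCG00000036203, 0.20 from ENSSSCG00000040381, 0.31 from ENSSSCG00000039111, 0.41 from ENSSSCG00000034766, 0.42 from ENSSSCG00000021006 and 0.61 from ENSSSCG00000037141. ENSSSCG00000036318 was listed at 0 in both newborn pigs and had means of 1.76, 8.83, 79.5 and 42.7 FPKM at the later ages. Next in likeness came ENSSSCG00000033417 for 4 members, ENSSSCG00000037009 for ENSSSCG00000021006, and ENSSSCG00000036127 for ENSSSCG00000040381. ENSSSCG00000033417 had means of 0.0817, 3.18, 7.5, 67.9 and 40.0 FPKM from D0 to Y2, and ENSSSCG00000036127 had 0.164, 1.49, 7.13, 62.3 and 24.8. No symbol was listed for these 4 either.

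ENSSSCG00000036224 had other neighbours. Its nearest mRNA was SLA-DQB1, at a difference of 0.33, and the next was HLA-DRA, the alpha chain of the DR molecule of MHC class II, at 0.43. In order of age SLA-DQB1 had means of 3.47, 10.9, 44.8, 147 and 73.6 FPKM, and HLA-DRA had 9.15, 20.4, 83.4, 338 and 182 FPKM. SLA-DQB1 and HLA-DRA belong to a family of similar sequences, and how reads were divided among its genes is not stated in the sources used here. Whether ENSSSCG00000036224 is related to them is unknown, and the source of the likeness was not tested.

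The step from D180 to Y2 is the one that the choice of members did not fix, although the D180 libraries were used for their level. All 7 mRNAs were lower in both adult pigs than in both pigs of D180, as were 89% of all mRNAs. With both limits, 0 of the 7 were called, against 0.105% of all mRNAs called higher and 1.25% called lower at Y2. At an unadjusted p under 0.05, 7 of the 7 passed, as did 10826 of all mRNAs. By adjusted p alone all 7 were lower, as were 84.6% of all mRNAs, so the direction was that of the table as a whole. Both adult pigs lay between those of D28 and D180 in all 7, and in 69.1% of all mRNAs.

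The size of this change varied among the members, and differences between members were not tested. ENSSSCG00000039111 was lower at Y2 by a log2 change of -1.40 ± 0.13 (limma SE, adjusted p = 3.06e-05) and ENSSSCG00000040381 by -1.32 ± 0.11 (adjusted p = 2.17e-05). The other 5 lay between -1.05 for ENSSSCG00000036224 (SE 0.08, adjusted p = 1.70e-05) and -0.81 for ENSSSCG00000036203 (SE 0.08, adjusted p = 4.15e-05). The errors were wider for ENSSSCG00000034766, at -1.01 (SE 0.18, adjusted p = 0.000723), and ENSSSCG00000021006, at -0.95 (SE 0.17, adjusted p = 0.000726). The limma SE pools the spread of all 5 ages, so it is not the spread at D180 and Y2 alone. The pigs of ENSSSCG00000034766 and ENSSSCG00000021006 differed by 0.61 and 0.47 at D0, but by 0.05 and 0.01 at D180. Those of ENSSSCG00000036203 differed by 0.13 at D180. The median of all mRNAs was -0.65. Relative to this shift the changes were -0.74 for ENSSSCG00000039111 and -0.67 for ENSSSCG00000040381, and between -0.39 and -0.16 for the other 5.

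FPKM divides by the reads of the whole library, so every value depends on the few most abundant mRNAs. The 10 highest mRNAs held between 68.1% and 90.7% of the summed FPKM of a library. The erythroid list of 19 measured genes summed to 482058 ± 1394 FPKM in newborn pigs, 423497 ± 11667 at D7 and 340291 ± 17414 at D28 (SD, n = 2). It summed to 124960 ± 15987 FPKM at D180 and 260388 ± 32398 in adults. It was thus lowest at the age at which the 7 members were highest. Of this list 11 genes fell and 0 rose from D28 to D180, beside 0.898% of all mRNAs called lower and 17.8% called higher. HBB, the adult beta globin, had means of 472064 FPKM at D0, 122445 at D180 and 256195 at Y2. The part of this change in the members' values was not tested. The steps were therefore also taken on 2 other scalings.

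In median-of-ratios scaling, the typical mRNA is taken as constant and each library is brought to the same median level relative to all libraries. It set the median change of all mRNAs within 0.02 of 0 at each step. On this scale the members' D0 to D7 steps had a median of 2.50, larger than the 2.27 of the deposited values. The 1 was added after division by the library factors, which were 0.437 and 0.455 at D0 and 0.501 and 0.539 at D7. Such division lowers the FPKM ratio of D7 to D0, so the larger median does not show a stronger rise. It reflects the weight of the added 1 beside low D0 values. Their D7 to D28 steps ran from 0.83 to 1.33, under the 1.5 of the rule for each, so 0 of the 7 met it. From D28 to D180 the other 6 members were higher by 1.10 to 1.44, whereas ENSSSCG00000036224 differed by 0.06. Removal of the 10 highest mRNAs with rescaling gave medians of 2.59, 1.54 and 1.92 for the 3 steps, beside 0.20, 0.27 and 0.40 over all mRNAs, and 5 of the 7 met the rule. ENSSSCG00000036224 and ENSSSCG00000037141 did not, with D7 to D28 steps of 1.48 and 1.3.

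**Figure D3:**
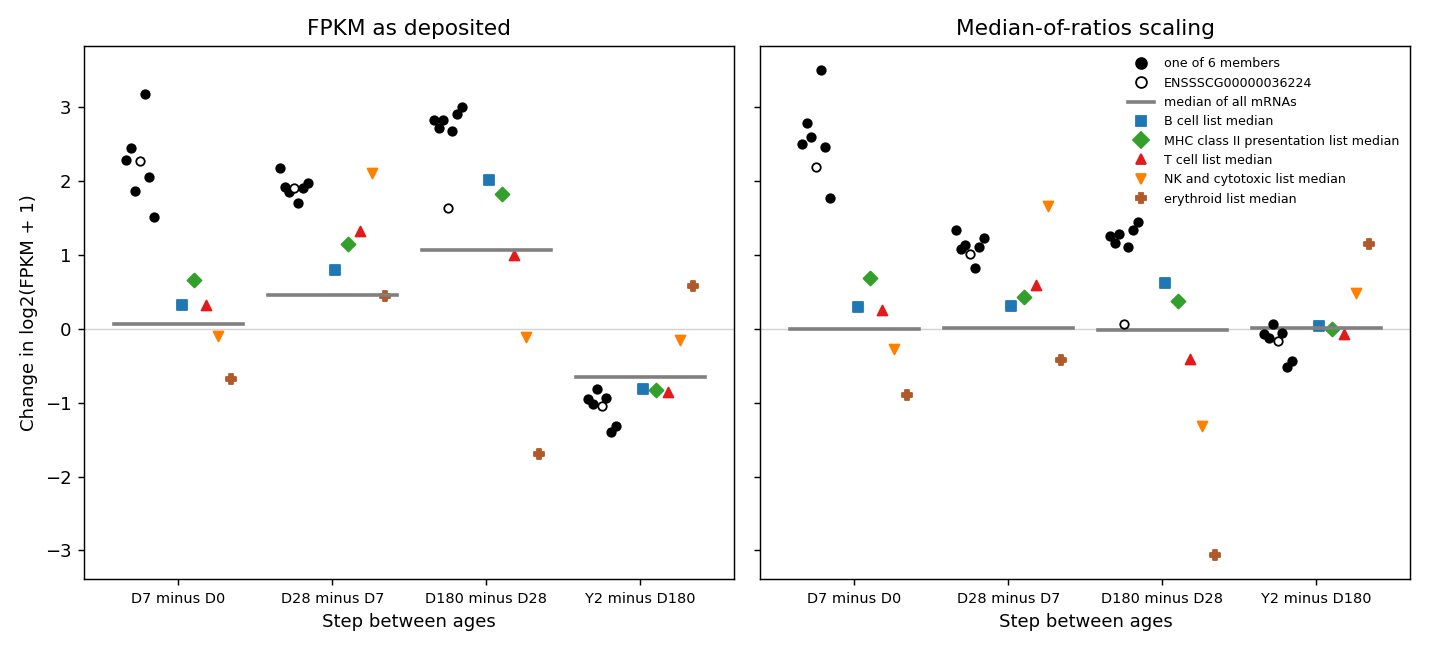
Change in log2(FPKM + 1) between neighbouring ages (vertical axis) for the 7 mRNAs (circles, with ENSSSCG00000036224 open), for the medians of 5 gene lists (coloured symbols) and for the median of all mRNAs (grey bars), as deposited (left) and after median-of-ratios scaling (right). Points are differences of means over 2 pigs. On the right the members stay above all mRNAs up to D180, with ENSSSCG00000036224 at 0.06 from D28 to D180, and lie between -0.51 and 0.06 from D180 to Y2.

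The change from D180 to Y2 also moved with the scaling, from a median of -1.01 over the members as deposited to -0.13 after median-of-ratios scaling. On the latter scale only ENSSSCG00000040381 passed an adjusted p of 0.05, at -0.44 (limma adjusted p = 0.0372), against 3.95% of all mRNAs called lower by adjusted p alone. ENSSSCG00000039111 was at -0.51 (adjusted p = 0.173), and ENSSSCG00000036203 changed sign to 0.06 (adjusted p = 0.742). The remaining 4 lay between -0.17 and -0.05, with adjusted p from 0.270 to 0.908. After removal of the 10 highest mRNAs, 4 members passed, against 16.9% of all mRNAs. These were ENSSSCG00000039111 at -0.72 (adjusted p = 0.0135), ENSSSCG00000040381 at -0.64 (adjusted p = 0.00501), ENSSSCG00000036224 at -0.37 (adjusted p = 0.00437) and ENSSSCG00000037141 at -0.25 (adjusted p = 0.0407). ENSSSCG00000039111 and ENSSSCG00000040381 had the lowest values of the 7 on all 3 scales.

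**Figure D4:**
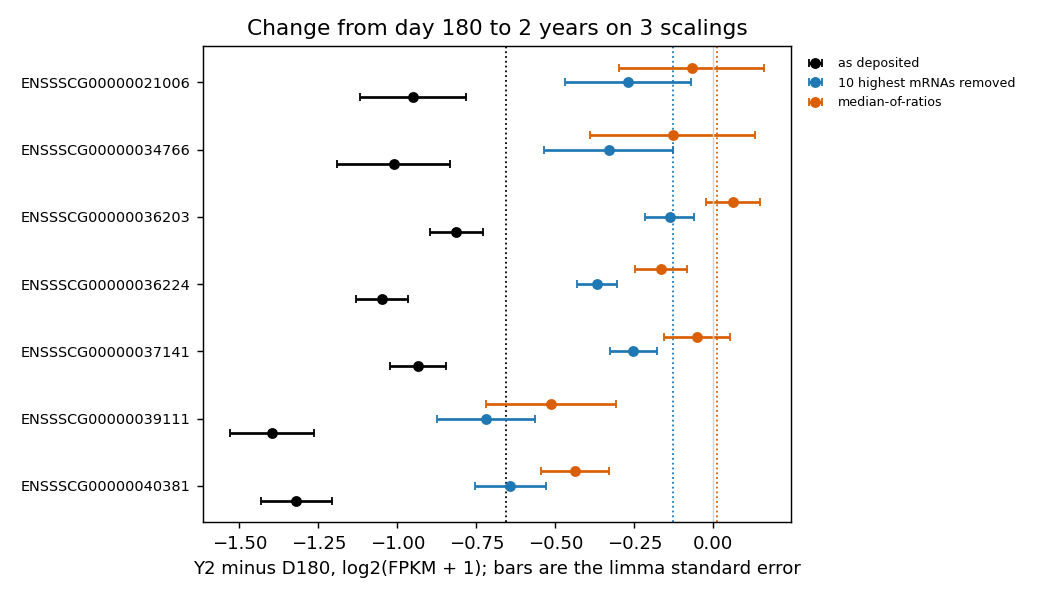
Change from D180 to Y2 in log2(FPKM + 1) (horizontal axis) for each of the 7 mRNAs (vertical axis) on 3 scalings, with n = 2 pigs per age. Bars are 1 limma standard error, which pools the spread of all ages. Dotted lines are the medians of all mRNAs on each scaling, -0.65 as deposited, -0.13 with the 10 highest removed and 0.01 after median-of-ratios scaling. All 7 points lie left of their dotted line on the deposited scale, and ENSSSCG00000036203 lies right of it after median-of-ratios scaling.

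Genes of known blood cell types were set beside the members in the same libraries, and each list with measured genes had a summed level above 0 at every age. For each list, the centred values of its genes were averaged and compared with the average of the members. The MHC class II list lay closest, with a root mean square difference of 1.13 between these averages. In order of age its 8 measured genes summed to 72.5, 98.4, 278, 1031 and 553 FPKM. At D7 0 of the 8 were called, at D28 2 rose, at D180 all 8 rose, and at Y2 0 were called. Of all mRNAs, 0.453% were called higher at D7, 2.02% at D28 and 17.8% at D180, and 1.25% lower at Y2. The list's median changes were 0.66, 1.15, 1.83 and -0.82, beside 0.06, 0.46, 1.07 and -0.65 over all mRNAs. CD74, the invariant chain that guides class II molecules to the endosome, had 48.0 FPKM at D0 and D7, 108 at D28 and 381 at D180, so it lacked the step in the week after birth.

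The B cell list came next, at a difference of 1.33. Its 17 measured genes summed to 19.5, 29.5, 73.9, 377 and 212 FPKM from newborn to adult. At D7 0 of the 17 were called, at D28 1 rose and at D180 15 rose, beside 0.453%, 2.02% and 17.8% of all mRNAs called higher. The list's median changes were 0.32, 0.80 and 2.01, beside 0.06, 0.46 and 1.07 over all mRNAs. The B cell surface protein MS4A1 (CD20) had means of 1.73, 3.16, 14.6, 82.0 and 51.5 FPKM over the 5 ages. BANK1, a scaffold of B cell receptor signalling, had 1.24, 3.52, 5.69, 37.5 and 19.4 FPKM. BLK, a kinase of the same pathway, had 2.74, 2.15, 5.79, 33 and 18.3 FPKM, so its mean at D7 was not above that at D0. CD79B, a signalling chain of that receptor, had 2.12, 3.17, 7.67, 31.5 and 17.5 FPKM.

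Of the immunoglobulin and plasma cell list, 10 of 21 symbols were measured. The symbols of immunoglobulin heavy and light chains, such as IGHM, IGHG, IGHA, IGKC and IGLC, were not matched to an identifier. The list therefore does not cover the mRNAs of these chains. The 10 measured genes summed to 6.92, 10.1, 33.9, 98.3 and 54.1 FPKM over the 5 ages. At D28 2 of the 10 rose, with a median change of 0.81 beside 0.46 over all mRNAs, of which 2.02% were called higher. At D180 4 rose, with a median of 1.19 beside 1.07 over all mRNAs, of which 17.8% were called higher. JCHAIN, the chain that joins IgM and IgA into polymers, had means of 0.782, 2.73, 11.4, 35.6 and 16.7 FPKM. MZB1, a chaperone of antibody assembly, had 0.421, 1.13, 2.84, 10.3 and 6.40 FPKM.

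The T cell list of 22 measured genes summed to 81.5, 109, 312, 718 and 363 FPKM in order of age. At D28 4 of the 22 were called higher, with a median change of 1.32 beside 0.46 over all mRNAs, of which 2.02% were called higher. At D180 4 were called higher, beside 17.8% of all mRNAs, and the list's median of 0.99 was under the 1.07 of all mRNAs. At Y2 1 was called lower, beside 1.25% of all mRNAs. TCF7, a transcription factor of naive T cells, had means of 5.94, 14.7, 27.5, 90.1 and 41.2 FPKM. LEF1, a related factor, was the gene called lower at Y2, with a log2 change of -1.73 (limma adjusted p = 6.75e-06). CD2 had means of 11.3, 13.5, 40.1, 81.2 and 40.0 FPKM, and CD3E had 5.91, 8.60, 31.8, 64.8 and 35.7 FPKM. Their log2 changes at D7 were 0.23 and 0.48, against 1.18 for TCF7 and 0.96 for LEF1. The 10 T cell receptor chain symbols were matched to 0 identifiers.

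The natural killer (NK) and cytotoxic list took a different course. Its 22 measured genes summed to 56.7 FPKM in newborn pigs, 48.6 at D7, 412 at D28 and 328 at both later ages. At D28 15 rose, beside 2.02% of all mRNAs called higher, with a median change of 2.10. At D180 0 were called, beside 17.8% of all mRNAs called higher, with a median of -0.12 beside 1.07 over all mRNAs. CCL5, a chemokine of cytotoxic lymphocytes, had means of 12.1, 10.7, 131, 73.7 and 84.5 FPKM. NKG7, a protein of cytotoxic granules, had 4.19, 5.99, 45.5, 41.0 and 42.9 FPKM. GNLY, another granule protein, had 5.82, 5.33, 48.4, 58.5 and 27.6 FPKM, with its highest mean at D180. CTSW had 17.2, 11.2, 46.0, 25.2 and 72.2 FPKM, with an SD of 37.9 FPKM over the pigs of D28. At Y2 1 gene of the list was called lower, beside 1.25% of all mRNAs. The members, in contrast, were each above their D28 level at D180, as their choice required.

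Lists of myeloid cells and platelets lay farther from the members, at differences of 1.96 to 2.39. The monocyte list of 12 genes summed to 175, 108, 69.5, 384 and 205 FPKM in order of age, with 3 lower at D28 and 12 higher at D180. The granulocyte list of 9 genes summed to 42.9, 63.8, 28.2, 230.0 and 148 FPKM, with 1 lower at D28 and 3 higher at D180. The platelet list of 11 genes summed to 165, 188, 143, 313 and 90.4 FPKM, with 7 lower at Y2. Of all mRNAs, 0.38% were called lower at D28, 17.8% higher at D180 and 1.25% lower at Y2. The erythroid list lay farthest, at 3.14.

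The list counts also moved with the scaling. After median-of-ratios scaling 0 B cell and 0 MHC class II genes were called at D180 against D28, with median changes of 0.62 and 0.38, while the median of the 7 members was 1.25. On that scale 9 NK and cytotoxic genes and 1 T cell gene were lower at D180, and 17 erythroid genes were lower. At that step 2 monocyte genes rose in place of 12 and 0 immunoglobulin and plasma cell genes in place of 4, and at D28 0 MHC class II genes and 1 T cell gene were called higher, beside 11 NK and cytotoxic genes. From D180 to Y2, 0 platelet genes were called on that scale in place of 7, and 6 erythroid genes rose in place of 2. Of all mRNAs, 55 were called higher and 10 lower on that scale from D180 to Y2. The shares of all mRNAs called at D28 and D180 on that scale are not given here. The part of cell composition in the members' values was not tested.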

How the data were processed

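Strand-specific libraries were made from peripheral blood RNA of 10 pigs after removal of ribosomal RNA. The authors aligned reads with HISAT2 2.0.4 to Sscrofa11.1 and deposited mRNA values as FPKM from StringTie 1.3.3, keeping mRNAs above 0.5 FPKM in at least 1 sample. lncRNAs were deposited as FPKM from Cufflinks 2.2.1, with a limit of 0.1. Software versions are from the submitters' processing notes. FPKM are not counts. Of 569 mRNAs under 0.1 FPKM in both D0 libraries, at most 6 shared a ratio, so no whole reads were recovered and depth per value is unknown. The number of pigs limits the precision.

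Ages and pig numbers came from the sample labels. The 7 members and the lists of blood cell genes were chosen with earlier results of these data known. Ages were compared on log2(FPKM + 1) by limma 3.58.1 (R 4.3.3). A single fit held the 5 ages and a trend of variance with level, and p-values were adjusted by Benjamini-Hochberg over 12354 mRNAs. The fold changes are on that scale and understate changes of low mRNAs. The fit was also run on simulated data in which most mRNAs did not change with age, unlike here, so no support is drawn from it. Tables were made with Python 3.11.15, numpy 2.4.6 and pandas 2.3.3. Symbols came from a table pairing 9735 of the 12354 identifiers with names, which covered 0 of the members. A list gene with 2 identifiers was counted under both.

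The genes named are the members, for each the 2 nearest mRNAs by root mean square difference, up to 3 mRNAs that miss the rule narrowly in 1 part, and genes among the 4 highest of each list at D180. LEF1, HBB, JCHAIN and the other list genes fall under this rule. lncRNAs within 100 kb of a member were planned but not analysed here, since no position of a member was at hand. Likeness to lncRNAs was added after seeing the data. Alternatives were a pseudocount of 0.1, both scalings, a filter that kept mRNAs reaching 1 FPKM in 2 or more libraries, only the compared ages in the fit, pig number as a block, no trend, adjusted p alone, and each pig left out in turn. A pig number shared between ages does not mark the same animal.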

Additional observations from a re-analysis of the deposited data

How the results depend on the processing

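Of 119 alternative values for the members' changes from D180 to Y2, 110 kept their direction and their side of an adjusted p of 0.05, 8 kept only the direction, and ENSSSCG00000036203 alone changed sign, to 0.0616 after median-of-ratios scaling. The 8 came from the 2 other scalings, 5 from median-of-ratios and 3 from removal of the 10 highest mRNAs. Many of the directions kept were fixed in advance. The filter, the fit of the compared ages only, the replicate block and the fit without trend leave these log2 changes as they are. So does leaving out a D0, D7 or D28 pig, and only the adjusted p can move there. The median change of all mRNAs was -0.65 as deposited, -0.13 with the 10 highest removed and 0.01 after median-of-ratios scaling. Leaving out a D180 or Y2 pig kept every member lower, with log2 changes from -1.50 to -0.75. With both limits 0 members were called under every alternative that kept both limits, and 7 by adjusted p alone. All mRNAs called at Y2 against D180 numbered 167, 13 higher and 154 lower. They numbered 764 with a pseudocount of 0.1, 65 after median-of-ratios scaling (55 higher, 10 lower), 72 with the 10 highest mRNAs removed (47 higher, 25 lower) and 10755 by adjusted p alone, and 167 to 195 with a pig left out. Of the 7 members, 0 met their own rule after median-of-ratios scaling and 5 with the 10 highest removed. The pig numbers do not pair animals, since each library came from a different pig. Deviations of same-numbered pigs correlated between -0.10 and 0.09 over 10 pairs of ages, which alone could not exclude a link between them. With the replicate block 168 mRNAs and 0 members were called. For the lists, 93 of 648 counts moved by over 1.5 times, 32 of them by adjusted p alone, 22 after median-of-ratios scaling, 19 with the 10 highest removed and 15 with a pseudocount of 0.1. The other 5 came from leaving out a pig. The immunoglobulin and plasma cell count at D28 went from 2 to 1 without D7 pig 1 and to 0 without D28 pig 2, the monocyte count at Y2 from 2 to 1 without either Y2 pig, and the erythroid count at Y2 from 2 to 1 without Y2 pig 1. The cause of these moves was not tested.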

Other observations

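The same measure of likeness was taken between the 7 members and the lncRNAs of the same libraries, a comparison added after seeing the data. All lncRNAs were searched, whereas mRNAs were limited to those with a mean of at least 10 FPKM at some age. The candidates therefore differ in level, and the distances to the 2 kinds are not on equal terms. The nearest lncRNA lay farther away than the nearest mRNA for every member, at root mean square differences of 0.61 to 1.27 with a median of 1.12, against 0.19 to 0.61 with a median of 0.33 for mRNAs. For 6 members it was TCONS_00193513 on an unplaced scaffold of Sscrofa11.1, with means of 99.2, 727, 1409.9, 2665 and 1555 FPKM in order of age. Its difference was 0.61 from ENSSSCG00000036224 and at least 1.08 from the other 5. For ENSSSCG00000040381 it was TCONS_00197550, on chromosome X from 45762913 to 45763074 on the plus strand, with means of 0.372, 0.394, 1.81, 20.9 and 6.26 FPKM from D0 to Y2. The mRNA and lncRNA tables were made by different programs, so levels are not compared between them.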
